A study of Mus musculus with 16 samples.

Results

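Translation factors are the proteins that bring the ribosome to a messenger RNA, place it on the start codon and move it along the coding sequence. Here their transcripts were followed in the ventricles of female mice, as every gene whose symbol starts with Eif or Eef and a digit, leaving out the Eif2ak kinases and Eef2k, the kinase of elongation factor 2. This gave 64 genes of the 21154 with a named probe, read by 89 probes, and the brightest probe stood for each gene. The rule used names only and no measured value. The scanner called a probe well above background on every array of some group for 63 of the 64, and these were tested. Of them 62 passed on all 16 arrays, and Eif5b on 15. Eif4e1b, an eIF4E relative known from the oocyte, was above background on 1 of 16 arrays, with levels from -7.14 to -3.79, and was not tested.

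The study compared nulliparous females with females after 2 weeks of lactation, each either wild-type (Npr1+/+) or Npr1 knockout (Npr1-/-), with 4 independent mice in each of the 4 groups and 1 one-colour array per mouse. Npr1 codes for the receptor through which ANP and BNP, hormones made by the heart, raise cyclic GMP and lower blood pressure. The labels name no promoter or cell type that limits the deletion, and the animals' ages are not given in the sources used here. The comparisons ask what lactation changes in the heart of each genotype, what the knockout changes in each state, and whether the lactation change differs between the genotypes. Nulliparous females have not given birth, so the lactating groups also differ from them by a pregnancy and a birth. No group separates these from lactation, so they cannot be told apart, and a lactation change below covers all of them.

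Initiation begins when eIF2, carrying the initiator transfer RNA and GTP, joins eIF1, eIF1A, eIF3 and eIF5 on the small ribosomal subunit, while eIF4E binds the cap of the messenger RNA and recruits the scaffold eIF4G and the helicase eIF4A. The 4E-binding proteins block eIF4E until the kinase mTOR phosphorylates them, and eIF2B reloads eIF2 with GTP, a step that the stress kinases of the Eif2ak family inhibit. During elongation eEF1A delivers transfer RNAs and eEF2 moves the ribosome by a codon. Adult heart muscle is known to use a second form of eEF1A, encoded by Eef1a2, beside the general form, encoded by Eef1a1, and growth of heart muscle under pressure load is known to involve mTOR signalling to this machinery.

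Levels below are log2 of the scanner's processed signal minus the 75th percentile of the same array, so they are relative within an array and a difference of 1 is a 2-fold change. A level of one probe is not comparable with that of another. All tests are limma's moderated test over 16 arrays and 14063 genes, and "called" means a Benjamini-Hochberg adjusted p under 0.05. Because whole ventricle was measured, fewer cells of a type and less RNA per cell cannot be told apart.

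On nulliparous arrays the scaling value, the 75th percentile of the processed signal, was 165 to 221, apart from 284 on knockout replicate 4, and on lactating arrays it was 278 to 347. The 8 cardiomyocyte markers were above background on all 16 arrays, and 3 of 6 skeletal muscle markers on no array. The Npr1 probe lay near background in every group, from -4.68 to -3.53, and was above it on 9 of 16 arrays, so it does not check the genotype labels. The summed level of 8 macrophage markers lay at 4.64 to 4.89 in nulliparous and 5.58 to 5.78 in lactating wild-type hearts, and at 5.78 to 6.04 in lactating knockout hearts; 7 of the 8 were above background on every array. That of 10 proliferation markers lay at 3.00 to 3.45 in nulliparous and 3.99 to 4.52 in lactating wild-type hearts, and at 4.08 to 4.74 in lactating knockout hearts. On nulliparous knockout replicate 4 the macrophage sum was 5.47, against 4.48 to 4.90 on the other 3 arrays of its group, and the proliferation sum was 4.23, against 2.78 to 3.11. All 10 proliferation markers had a probe, and 7 of them were above background on every array. Erythroid markers (4 of 5 with a probe above background on every array) summed to 8.41 to 8.76 in nulliparous and 8.98 to 9.43 in lactating wild-type hearts, and neutrophil markers (2 of 4) to 7.98 to 8.02 and 7.31 to 7.56. Cardiomyocyte markers summed to 12.69 to 13.00 in nulliparous and 12.59 to 12.72 in lactating wild-type hearts. In knockout hearts their sum was 12.96 to 13.06 on 3 nulliparous arrays, 12.70 on replicate 4 and 12.43 to 12.62 in lactating hearts, without overlap. Of the 8 cardiomyocyte markers, 6 were called lower and 2 higher there, or 75% and 25%, against 18.6% and 25.5% of all genes. In wild-type hearts 2 were called lower and 2 higher, or 25% each way, against 18.5% and 31.8%. Atrial markers (3 of 6 above background on every array) summed to 7.67 to 8.51 in nulliparous and 8.69 to 9.57 in lactating wild-type hearts, and lymphocyte markers (2 of 6) to 1.29 to 1.71 and 0.95 to 1.25. Such a sum mainly follows its brightest markers. Of 5 tested atrial markers, 1 was called higher and 3 lower in wild-type hearts, with a median change of -1.26, against the rise of their sum. Of 3 tested neutrophil markers, 1 was called higher and 1 lower, with a median of 0.65, against the fall of their sum. Of 7 fibroblast markers, 4 were called higher and 1 lower in wild-type hearts (57.1% and 14.3%). In knockout hearts 5 were called higher and 0 lower (71.4% and 0%). Of 4 tested adipocyte markers, 1 was called lower in knockout than in wild-type hearts in the nulliparous and 3 in the lactating state. These are 25% and 75%, against 0.0284% and 0.135% of all genes. The part of these cell types, and of this array, in the results below was not tested, except where a value without the array is given.

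Promoter sequences are shown because many of the members were called in the same direction with lactation. RefSeq windows of 250 bases before to 50 bases after a gene's start (GRCm38.p6) were found for 49 of the 64 members, as 61 windows of 300 bases. The E-box CACGTG, the element that Myc and its relatives are known to bind and which reads the same on both strands, was present in 24.6% of the members' windows and in 7.15% of all 32851 windows. Of the 13 members that held it, 8 were called higher with lactation in wild-type hearts and 0 lower. Among all 49 members with a window 26 were called higher, and of the 63 tested factors 4 (6.35%) were called lower. Over all tested genes these shares were 31.8% higher and 18.5% lower. In knockout hearts 6 of the 13 were called higher, against 21 of the 49 and 25.5% of all genes. The motif was present both in members that rose and in members that were not called, as the stretches of 120 bases before the start show for a pair of each kind, chosen after their values were seen, with the E-box in capitals.
Eef1akmt4: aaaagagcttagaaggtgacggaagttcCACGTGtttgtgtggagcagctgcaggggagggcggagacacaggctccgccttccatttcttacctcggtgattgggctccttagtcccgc
Eif3f: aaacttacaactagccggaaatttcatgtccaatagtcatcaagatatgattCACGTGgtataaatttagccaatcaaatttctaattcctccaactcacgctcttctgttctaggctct
Eef2: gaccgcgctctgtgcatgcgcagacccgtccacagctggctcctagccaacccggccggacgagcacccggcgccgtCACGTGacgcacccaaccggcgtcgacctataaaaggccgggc
Eif4g1: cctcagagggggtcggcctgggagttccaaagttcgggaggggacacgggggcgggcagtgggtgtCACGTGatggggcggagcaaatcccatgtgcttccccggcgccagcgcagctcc

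The first pair belongs to genes called higher in lactating wild-type hearts, Eef1akmt4 (chr16:20611481-20611600, plus strand, E-box starting 92 bases before the gene's start) and Eif3f (chr7:108934295-108934414, plus strand, 68 bases before). The second pair belongs to genes that were not called there, Eef2 (chr10:81176511-81176630, plus strand, 43 bases before) and Eif4g1 (chr16:20672607-20672726, plus strand, 54 bases before). The array was designed on another build, mm9, and these coordinates are those of the RefSeq table. Searched on both strands, CCGGAAGT, a site of the ETS family, was found in 16.4% of the members' windows and 3.89% of all windows, and AAGATGGC, a YY1 site, in 9.84% and 2.75%. TGATGNAA, the element of C/EBP and ATF proteins in stress genes, was found in 1.64% of the members' windows, that of Eif2s3x, and in 3.97% of all windows. A match of letters is a description and was not tied to any measured binding.

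In wild-type hearts, lactation raised the transcripts of 35 of the 63 tested factors and lowered those of 4, while 24 were not called. The called rises had a median of 1.62-fold and ran from 1.16-fold (Eif2b2, a subunit of eIF2B) to 4.43-fold (Eif3i, a subunit of eIF3), and the falls ran from 1.17-fold (Eif1) to 2.14-fold (Eif3j2). The share called higher, 55.6%, stood beside 31.8% over all tested genes, and the share called lower, 6.35%, beside 18.5%. In either direction 61.9% of the factors were called, against 50.3% of all genes. The median change of the factors was 0.31 on the log2 scale, against 0.10 over all genes. All 4 lactating arrays lay above all 4 nulliparous arrays for 34 of the 63 factors (54%, against 30.4% of all genes) and below them for 5 (7.94%, against 17%). Called changes of over 2-fold were found for 7 factors, 11.1% of the 63, against 10.7% of all genes.

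In knockout hearts, lactation raised 28 factors and lowered 8. The shares were 44.4% higher, against 25.5% over all genes, and 12.7% lower, against 18.6%, and in either direction 57.1%, against 44.1%. The median change was 0.23, against 0.06 over all genes, and the called rises ran from 1.17-fold to 3.25-fold with a median of 1.53-fold. Both genotypes shared 27 of the rises (77.1% of those in wild-type and 96.4% of those in knockout) and 4 falls, Eif1, Eif2s3x, Eif3j2 and Eif4ebp3, which are all 4 of the wild-type falls and 4 of the 8 in knockout hearts. With each array centred on its median in place of its 75th percentile, which moved the median of all genes from 0.10 to 0.28 in wild-type and from 0.06 to 0.24 in knockout hearts, Eif3j2 was the only factor still called lower in either genotype. The lactating knockout arrays lay above all nulliparous knockout arrays for 22 factors (34.9%, against 19% of all genes) and below them for 4 (6.35%, against 14.1%). The 2 comparisons share no array, and across the 63 factors the changes correlated at r = 0.969, against 0.833 over all tested genes, as a description across genes, which are not independent. Another 8 factors were called higher in wild-type hearts alone (Eef1akmt1, Eef1b2, Eif1a, Eif2b2, Eif3l, Eif4enif1, Eif4h and Eif5a2), 1 higher in knockout hearts alone (Eif2d) and 4 lower in knockout hearts alone (Eef1d, Eif1ad, Eif3c and Eif3d). The difference between the genotypes in the lactation change was called for 0 of the 63, so none of these 13 is shown to respond differently. All of these calls are those of the brightest probes. Other probes of Eif1ad and Eif3c were called in both genotypes, as described with the probes below.

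**Figure D1:**
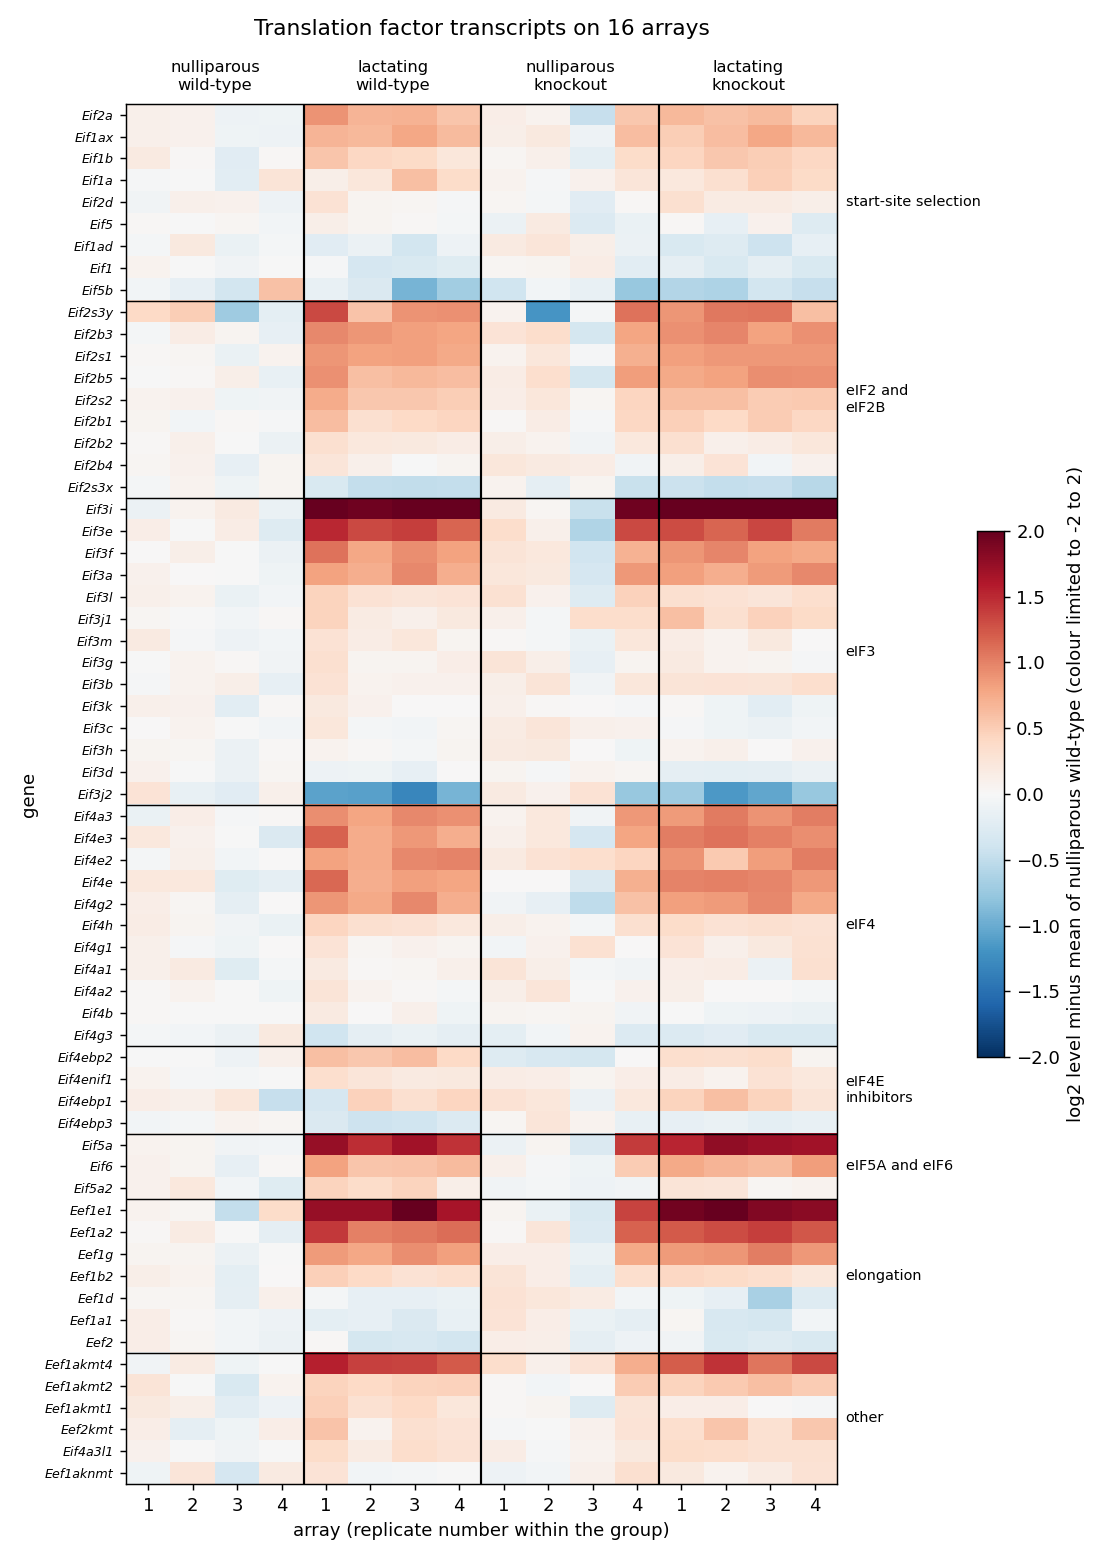
Level of 63 tested translation factors (rows, by role) on 16 arrays (columns, by group and replicate), as log2 level relative to the nulliparous wild-type mean, with red higher and blue lower. Both lactating groups are red in the rows of Eif3i, Eif5a, Eef1e1, Eef1a2 and Eef1akmt4, blue in the row of Eif3j2, and pale for Eif3h, Eif3k, Eif4a1 and Eif4b; the column of nulliparous knockout replicate 4 resembles the lactating columns in many of these rows.

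The 4 nulliparous knockout arrays did not lie together for many factors. Replicate 4 lay above the other 3 arrays of its group for 27 of the 27 factors called higher in both genotypes, nearer to the lactating knockout mean than to the mean of those 3 for 25 of the 27, and at or above the lowest lactating knockout array for 8. It lay below the other 3 for all 4 factors called lower in both genotypes. No such count over all genes is given here. Over the 23 called factors that changed by more than 0.5 in wild-type hearts, its distance from the other 3 arrays had a median of 0.853 of the wild-type lactation change, with a range of 0.180 to 1.15. Without that array 53.4% of all genes were called with lactation in knockout hearts, against 44.1% with it. Among the factors 33 were then called higher and 8 lower, and the change was larger for 58 of the 63. The 5 calls gained were all rises, those of Eif2s3y (1.28, adjusted p = 0.00468), Eif4h (0.26, adjusted p = 0.0140), Eif3j1 (0.31, adjusted p = 0.0241), Eef1b2 (0.28, adjusted p = 0.0448) and Eif1a (0.31, adjusted p = 0.0496), and no call was lost. Eef1b2, Eif1a and Eif4h are among the 8 rises listed above as called in wild-type hearts alone.

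The eIF3 complex is the largest initiation factor and holds the small subunit ready for the messenger RNA. Of its 14 tested members, 5 were called higher with lactation in wild-type hearts, 1 lower and 8 not called, and the counts were 4, 3 and 7 in knockout hearts. These are 35.7% higher and 7.14% lower in wild-type hearts, against 31.8% and 18.5% of all genes, and 28.6% and 21.4% in knockout hearts, against 25.5% and 18.6%, so the shares of rises lay near those of all genes. Their median change was 0.16 and 0.12 in the 2 genotypes, against 0.10 and 0.06 over all genes. Eif3i, a WD-repeat subunit at the edge of the complex, had levels of 0.82, 1.00, 1.11 and 0.79 in nulliparous and 3.23, 2.88, 3.18 and 3.03 in lactating wild-type hearts. In knockout hearts they were 1.11, 0.98, 0.48 and 2.87 in nulliparous and 2.92, 3.14, 3.13 and 3.06 in lactating animals. All 8 lactating hearts lay above the 8 nulliparous hearts, although nulliparous knockout replicate 4, at 2.87, lay just under the lowest lactating value, 2.88. The change was 2.15 (SE 0.35, 4.43-fold, limma adjusted p = 0.000291) in wild-type and 1.70 (SE 0.35, adjusted p = 0.00203) in knockout hearts, and 2.21 in knockout hearts without replicate 4. It was the largest change of any of the 63 factors in both genotypes.

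Eif3e, a scaffold subunit of eIF3 whose gene is also a known integration site of a mouse mammary tumour virus, followed the same order. Its levels were 1.94, 1.80, 1.96 and 1.55 in nulliparous and 3.33, 3.13, 3.19 and 2.97 in lactating wild-type hearts, and 2.16, 1.92, 1.21 and 3.14 against 3.12, 2.97, 3.14 and 2.85 in knockout hearts. The wild-type groups did not overlap, while nulliparous knockout replicate 4, at 3.14, lay at the top of the lactating knockout range. The change was 2.54-fold in wild-type (adjusted p = 0.00129) and 1.89-fold in knockout hearts (adjusted p = 0.0156, and 0.0707 when only the knockout groups were fitted). Eif3f, a subunit with a deubiquitinase-type fold that is known to control muscle size, rose 1.87-fold in wild-type, from 3.51 to 3.75 to 4.39 to 4.72, and 1.58-fold in knockout hearts. Eif3a, the largest subunit and the backbone of the complex, rose 1.75-fold, from 1.69 to 1.87 to 2.50 to 2.73, and 1.52-fold. For these genes lactating and nulliparous wild-type arrays stood wholly apart.

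Other subunits of the complex were not called by their brightest probes. Eif3h, Eif3k, Eif3g, Eif3b and Eif3m were not called in either genotype, and their changes in wild-type hearts lay between 0.03 and 0.18. For Eif3h, a subunit of the outer ring, the levels were 7.06 to 7.24 in nulliparous and 7.15 to 7.25 in lactating wild-type hearts, and the 95% interval of the change was -0.14 to 0.19. Another probe was called higher in both genotypes for Eif3h (0.59 and 0.56), Eif3k and Eif3m, as described with the probes below. Eif3l, which sits beside Eif3k, rose 1.24-fold in wild-type hearts (adjusted p = 0.0441) and changed by 0.15 in knockout hearts. Eif3c and Eif3d, the latter a subunit that itself binds the cap of some messenger RNAs, changed by 0.04 and -0.09 without a call in wild-type hearts and fell 1.16-fold (adjusted p = 0.0280) and 1.15-fold (adjusted p = 0.0218) in knockout hearts. For Eif3c this holds for the brightest probe only, and its second probe was called lower in both genotypes.

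Eif3j2 was the factor that fell most. It is a near-identical copy of Eif3j1, the loosely bound subunit that touches the decoding site, and a probe may read both, so the identity of its signal is uncertain. The levels were 3.79, 3.38, 3.30 and 3.62 in nulliparous and 2.46, 2.43, 2.23 and 2.59 in lactating wild-type hearts, which did not overlap. In knockout hearts they were 3.71, 3.61, 3.82 and 2.77 and 2.82, 2.37, 2.48 and 2.76, with replicate 4 of the nulliparous group inside the lactating range. The fall was 2.14-fold in wild-type (adjusted p = 0.000540) and 1.82-fold in knockout hearts (adjusted p = 0.00349). The probe for Eif3j1 changed the other way, by 0.22 and 0.25, and was not called, except at 0.31 in knockout hearts without nulliparous replicate 4.

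**Figure D2:**
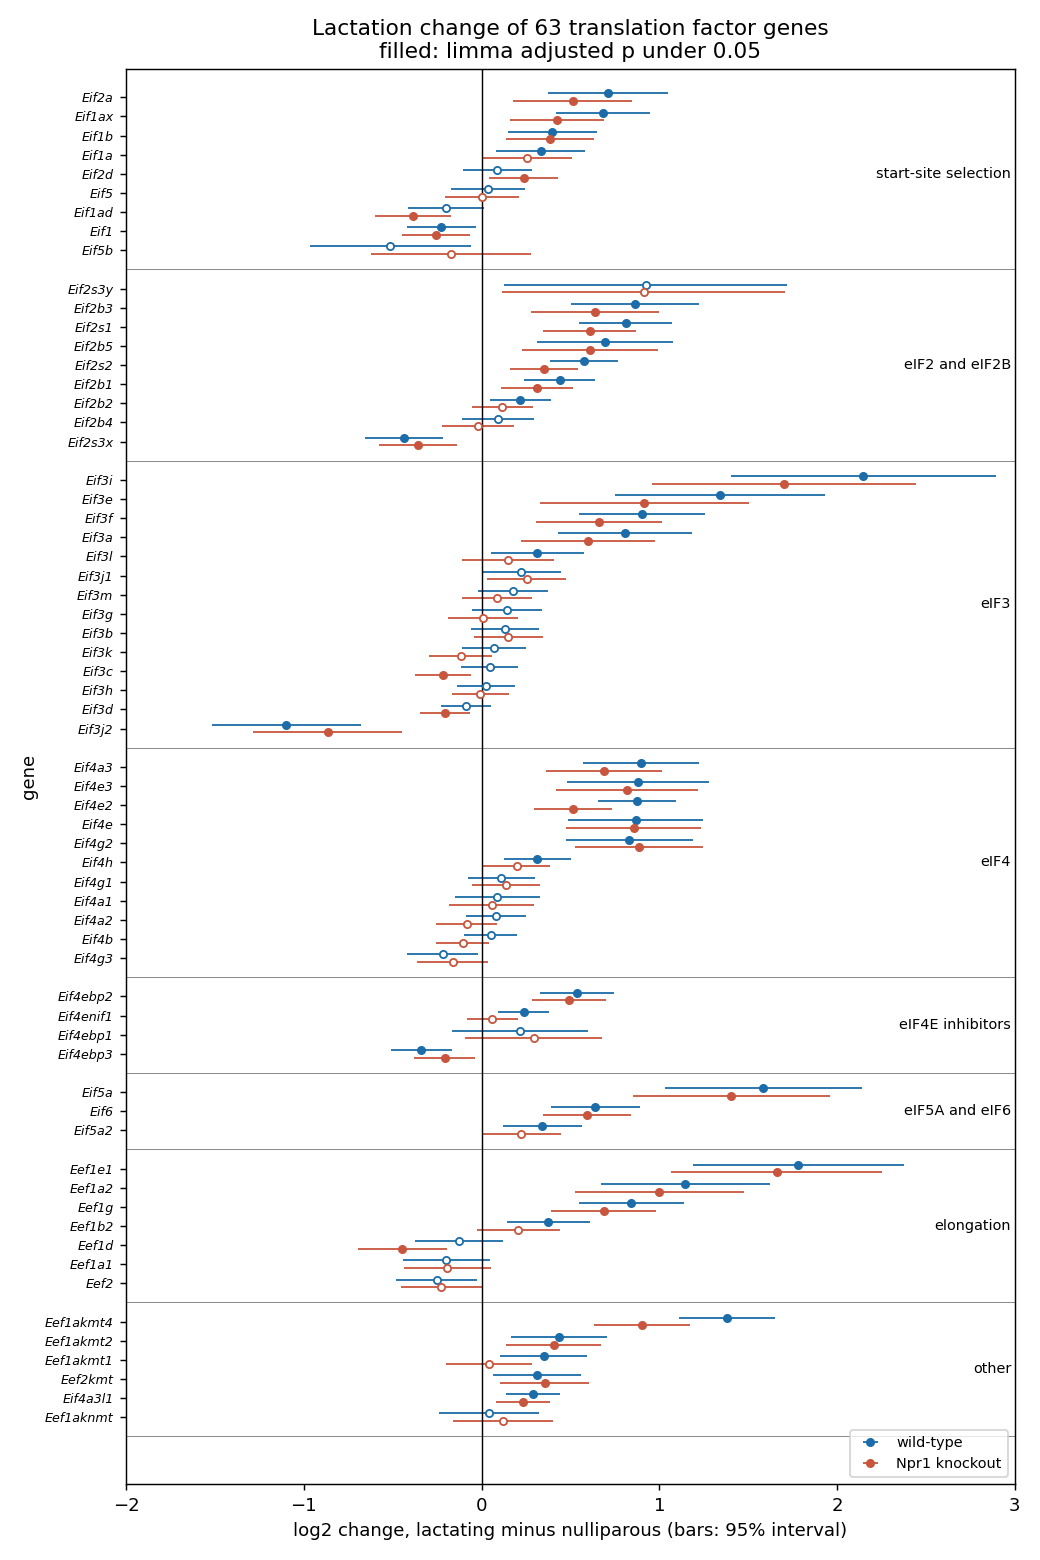
Change with lactation of 63 translation factors, by role, in wild-type (blue) and Npr1 knockout hearts (red), as log2 lactating minus nulliparous with its 95% interval from limma (n = 4 per group). Filled points are called. The largest rise in both genotypes is that of Eif3i (2.15 and 1.70) and the largest fall that of Eif3j2 (-1.10 and -0.87), and within eIF3, eIF4 and the elongation factors changed and uncalled members stand side by side.

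Of the 11 tested factors of the eIF4 group, 6 were called higher and 0 lower in wild-type hearts, and 5 and 0 in knockout hearts, with median changes of 0.31 and 0.20. The shares higher were 54.5% and 45.5%, against 31.8% and 25.5% of all genes, of which 18.5% and 18.6% were called lower. The rises in both genotypes were those of the cap-binding proteins Eif4e, Eif4e2 and Eif4e3 and of Eif4g2 and Eif4a3, while the scaffolds Eif4g1 and Eif4g3 and the helicases Eif4a1 and Eif4a2 were not called. All of these are calls by the brightest probes. Other probes of Eif4g3, Eif4a2 and Eif4b were called lower in both genotypes, as described with the probes below. Eif4e, the cap-binding protein, had levels of 2.93, 2.93, 2.47 and 2.53 in nulliparous and 3.86, 3.44, 3.53 and 3.50 in lactating wild-type hearts. In knockout hearts the levels were 2.72, 2.72, 2.42 and 3.42 and 3.70, 3.72, 3.68 and 3.59. Lactating arrays were above nulliparous arrays in both genotypes without overlap, and the change was 1.83-fold (adjusted p = 0.00127) and 1.81-fold (adjusted p = 0.00220). These values are those of the brighter of the 2 Eif4e probes alone.

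Eif4e3, a cap-binding relative found in heart and skeletal muscle, rose 1.84-fold in wild-type, from -0.63 to -0.13 to 0.39 to 0.84, and 1.76-fold in knockout hearts. Eif4e2, a cap-binding protein known as a repressor of translation and as a cap reader in low oxygen, rose from 1.91, 2.05, 1.89 and 1.96 to 2.76, 2.69, 2.91 and 2.94 in wild-type hearts, or 1.83-fold (adjusted p = 8.1e-05), and 1.43-fold in knockout hearts. That call rests on 1 of its 3 tested probes. Another probe of the same Eif4e2 transcript accession fell by 0.95 and 0.79 in wild-type and knockout hearts, and with the mean of the 3 probes the change was 0.01 in wild-type and -0.19 in knockout hearts, with no call.

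Eif4g2, an eIF4G relative that lacks the eIF4E-binding part and supports cap-independent initiation, had levels of 3.22, 3.14, 2.91 and 3.10 in nulliparous and 3.97, 3.85, 4.05 and 3.82 in lactating wild-type hearts. It rose 1.78-fold in wild-type (adjusted p = 0.00115) and 1.85-fold in knockout hearts (adjusted p = 0.00141). Eif4g1, the main scaffold, stayed at 5.46 to 5.64 and 5.57 to 5.81 in the wild-type groups, which overlapped, with a change of 0.11 (95% interval -0.08 to 0.30), and Eif4g3, another scaffold, changed by -0.22 (adjusted p = 0.0647). Eif4a3, the helicase that marks exon junctions in the nucleus rather than scanning leader sequences, rose from 0.59, 0.86, 0.69 and 0.75 to 1.65, 1.51, 1.68 and 1.64 in wild-type hearts, 1.86-fold, and 1.61-fold in knockout hearts. Eif4a3l1, a near-identical copy of it whose signal the probes may not separate, rose 1.22-fold and 1.17-fold.

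The helicases of the cap complex and their cofactor Eif4b were not called by their brightest probes, while other probes of Eif4a2 and Eif4b were called lower in both genotypes. Eif4a1, the general one, had levels of 5.33 to 5.75 in nulliparous and 5.60 to 5.75 in lactating wild-type hearts, a change of 0.09 with a 95% interval of -0.15 to 0.33. Eif4a2, the form of brain and muscle, changed by 0.08 in wild-type and -0.08 in knockout hearts by its brightest probe, neither of them called. Eif4b, the helicase cofactor, changed by 0.05 and -0.11, and Eif4h, which acts in the same step, was called in wild-type hearts (1.24-fold, adjusted p = 0.00902) and in knockout hearts only without nulliparous replicate 4.

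Among the proteins that hold back eIF4E, Eif4ebp2 rose, Eif4ebp3 fell and Eif4ebp1 was not called. Eif4ebp1, the 4E-binding protein best known as an mTOR target, had levels of 5.76, 5.74, 5.86 and 5.18 in nulliparous and 5.30, 6.10, 5.95 and 6.06 in lactating wild-type hearts, and the 2 groups overlapped through 1 low lactating array. Its change was 0.22 (95% interval -0.17 to 0.60, adjusted p = 0.337) in wild-type and 0.29 in knockout hearts. Leaving out lactating wild-type replicate 1, the low array at 5.30, gave 0.40 with an adjusted p of 0.0450. Nulliparous wild-type replicate 4 was low too, at 5.18 against 5.74 to 5.86 on the others of its group, and leaving it out makes the change smaller. The call thus rests on leaving out the low array of the lactating group only.

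Eif4ebp2, the form abundant in brain, stood at 3.11, 3.12, 3.03 and 3.23 in nulliparous and 3.72, 3.66, 3.74 and 3.52 in lactating wild-type hearts. It stood at 2.87, 2.80, 2.77 and 3.14 and 3.46, 3.45, 3.47 and 3.17 in the knockout groups. Lactation raised it 1.45-fold in wild-type (adjusted p = 0.000584) and 1.41-fold in knockout hearts (adjusted p = 0.00176), and the means of both knockout groups lay lower than those of the wild-type groups of the same state, without a call. Eif4ebp3, another form, lay at 1.99 to 2.12 in nulliparous and 1.64 to 1.78 in lactating wild-type hearts and fell 1.27-fold there (adjusted p = 0.00320). Its fall of 1.16-fold in knockout hearts had an adjusted p of 0.0482, and with each array centred on its median the changes were -0.16 and -0.03, with no call. Eif4enif1, which carries eIF4E into the nucleus, rose 1.18-fold in wild-type hearts and changed by 0.06 in knockout hearts.

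**Figure D3:**
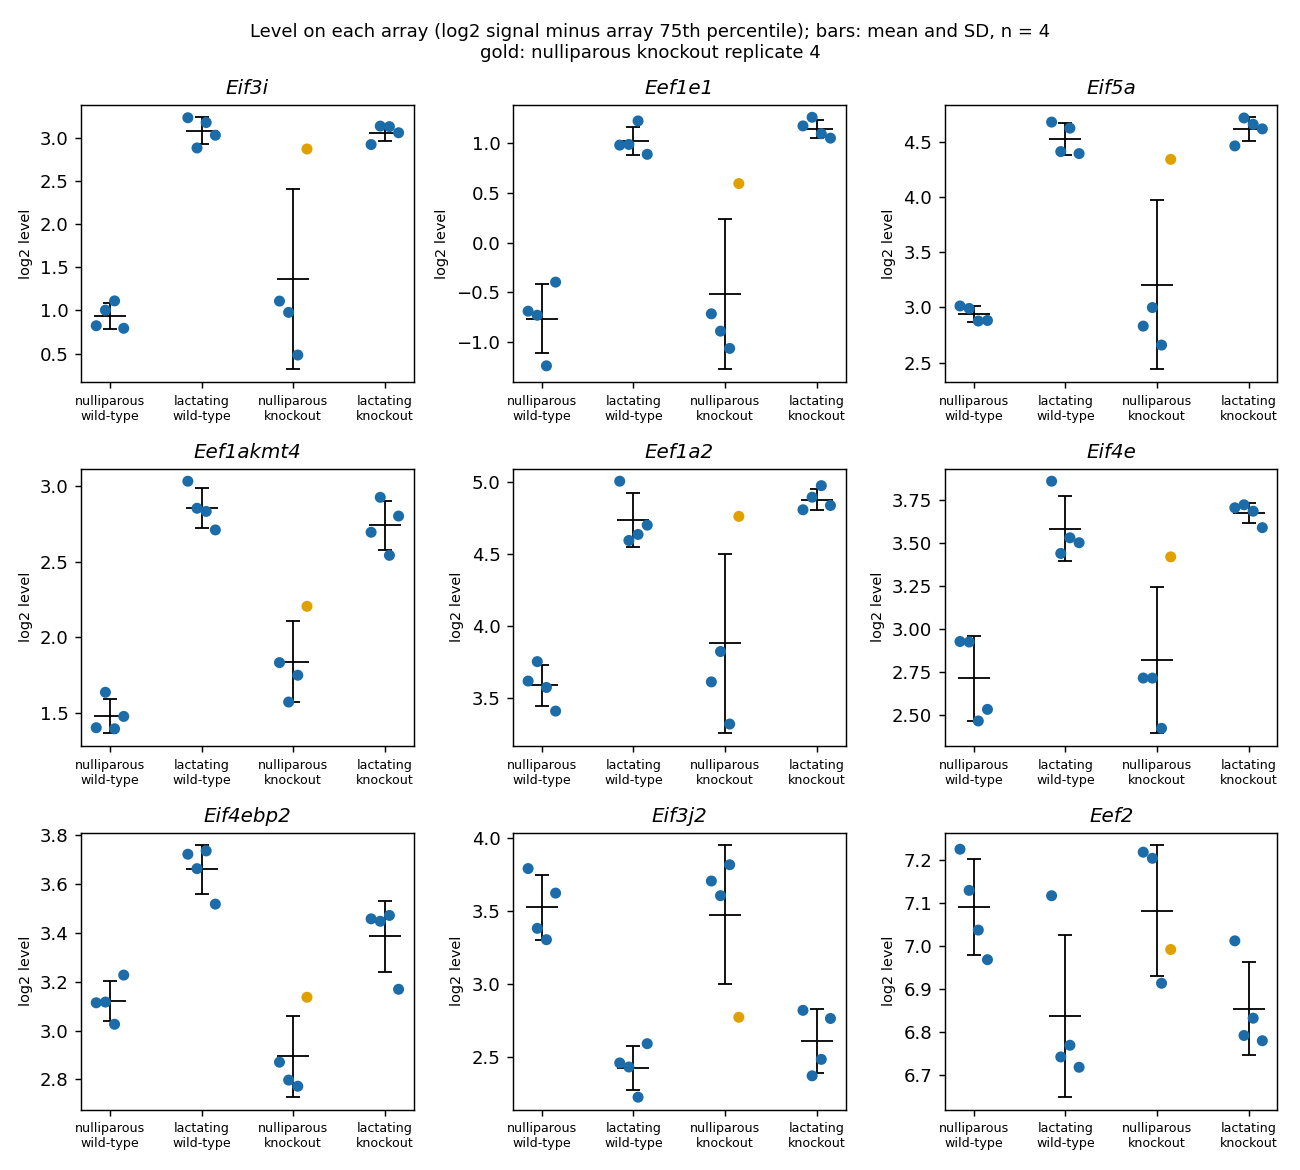
Level of 9 translation factors on each of the 16 arrays, on the log2 scale relative to that array's 75th percentile, with the mean and SD of each group of 4. For Eif3i, Eef1e1, Eif5a, Eef1a2 and Eif4e the 4 lactating arrays of each genotype lie above the nulliparous arrays, and the gold point, nulliparous knockout replicate 4, lies far from the other 3 of its group; the Eef2 groups overlap.

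The eIF2 complex and its exchange factor eIF2B had 6 of 9 tested members called higher, 1 lower and 2 not called in wild-type hearts, and 5, 1 and 3 in knockout hearts, with median changes of 0.58 and 0.35. These are 66.7% higher and 11.1% lower in wild-type hearts, against 31.8% and 18.5% of all genes. In knockout hearts they are 55.6% and 11.1%, against 25.5% and 18.6%. Eif2s1, the alpha subunit whose phosphorylation slows initiation under stress, had levels of 2.27, 2.29, 2.12 and 2.31 in nulliparous and 3.12, 3.05, 3.06 and 3.00 in lactating wild-type hearts, and of 2.31, 2.47, 2.22 and 2.96 and 3.07, 3.12, 3.11 and 3.11 in the knockout groups. The groups did not overlap in either genotype, and Eif2s1 rose 1.76-fold (adjusted p = 0.000202) and 1.53-fold (adjusted p = 0.00188). With the mean of its 2 probes, the second of them with an SE of 0.56, neither change was called (adjusted p = 0.0770 and 0.961). Eif2s2, the beta subunit, rose 1.49-fold and 1.28-fold by its brightest probe, while its second probe fell by 0.69 and 1.14 on the log2 scale, both called, so the direction for Eif2s2 depends on the probe.

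Of the catalytic and regulatory eIF2B subunits, Eif2b5, the catalytic one, rose from 1.54, 1.57, 1.66 and 1.40 to 2.46, 2.14, 2.19 and 2.15 in wild-type hearts, 1.62-fold (adjusted p = 0.00558), and 1.53-fold in knockout hearts. Eif2b3, its partner in the catalytic pair, rose 1.82-fold and 1.56-fold, and both of its probes were called higher in both genotypes. Of the regulatory subunits, Eif2b1 rose 1.36-fold and 1.24-fold, Eif2b2 rose 1.16-fold in wild-type hearts, and Eif2b4 was not called in either (0.09 and -0.02).

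The gamma subunit, which binds GTP and the initiator transfer RNA, is encoded on both sex chromosomes in mice. Eif2s3x, on the X chromosome, fell from 1.53, 1.65, 1.48 and 1.63 to 1.28, 1.09, 1.09 and 1.09 in wild-type hearts, 1.35-fold (adjusted p = 0.00313), and 1.28-fold in knockout hearts (adjusted p = 0.0124), and both of its probes fell. With median centring these adjusted p-values were 0.0557 and 0.184. The probe for Eif2s3y, the homologue on the Y chromosome, was above background on all 16 arrays of these labelled females, with levels of -1.97, -1.87, -3.08 and -2.56 in nulliparous and -1.04, -1.80, -1.47 and -1.46 in lactating wild-type hearts, near the dim end of the 63 probes. Which transcript this probe read in females was not tested. Its change of 0.92 (SE 0.37, adjusted p = 0.0512) in wild-type hearts was not called. In knockout hearts it was 0.91 (adjusted p = 0.0593), and 1.28, which was called, without nulliparous replicate 4.

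The factors that find and check the start codon gave 4 rises, 1 fall and 4 without a call in wild-type hearts, and 4, 2 and 3 in knockout hearts, with median changes of 0.09 and 0.24. That is 44.4% higher and 11.1% lower in wild-type hearts, against 31.8% and 18.5% of all genes. In knockout hearts it is 44.4% and 22.2%, against 25.5% and 18.6%, so the share of falls lay near that of all genes there. Eif1ax, which encodes eIF1A and helps the ribosome scan, rose from 3.49, 3.48, 3.29 and 3.28 to 4.07, 4.04, 4.15 and 4.01 in wild-type hearts, 1.61-fold (adjusted p = 0.000559), and 1.34-fold in knockout hearts. Eif2a, a factor used at non-AUG starts and distinct from the alpha subunit of eIF2, rose 1.64-fold from 0.41 to 0.63 to 1.08 to 1.42, and 1.43-fold in knockout hearts. Eif1b, a close relative of Eif1, rose 1.32-fold and 1.31-fold, and Eif1a rose 1.26-fold in wild-type hearts, and in knockout hearts was called only without nulliparous replicate 4. Eif2d, which can load the initiator without GTP, changed by 0.09 in wild-type hearts and rose 1.18-fold in knockout hearts (adjusted p = 0.0457).

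Eif1, which guards against starting at the wrong codon, fell 1.17-fold from 7.69 to 7.83 to 7.42 to 7.73 (adjusted p = 0.0485) and 1.19-fold in knockout hearts by its brightest probe, whereas its second probe rose by 0.40 and 0.37, both called, and the mean of the probes gave 0.09 and 0.06 with no call. Eif1ad fell 1.31-fold in knockout hearts, where its second probe rose by 0.71. Eif5, which triggers GTP hydrolysis on eIF2, stayed at 4.13 to 4.22 and 4.14 to 4.30 in the wild-type groups, a change of 0.04 with a 95% interval of -0.17 to 0.25. Eif5b, which joins the ribosomal subunits, was read dimly, at -3.50 to -2.55 in nulliparous and -4.05 to -3.28 in lactating wild-type hearts, which overlapped, with a change of -0.51 (SE 0.21, adjusted p = 0.0557).

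All 3 of Eif5a, Eif5a2 and Eif6 were called higher in wild-type hearts, and Eif5a and Eif6 in knockout hearts. Over all genes 31.8% and 25.5% were called higher. The medians of the 3 changes were 0.64 and 0.59. Eif5a encodes eIF5A, a protein known to carry the amino acid hypusine and to help elongation at difficult sequences. Its levels were 3.01, 2.99, 2.88 and 2.88 in nulliparous and 4.68, 4.41, 4.62 and 4.39 in lactating wild-type hearts. The knockout groups had 2.83, 3.00, 2.66 and 4.34 and 4.46, 4.71, 4.66 and 4.62. Nulliparous knockout replicate 4 was the only nulliparous array above 3.01. The rise was 3.00-fold (SE 0.26 on the log2 scale, adjusted p = 0.000313) in wild-type and 2.65-fold (adjusted p = 0.00130) in knockout hearts, and 3.44-fold without that array.

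Eif5a2, a second eIF5A gene with little expression outside brain and testis, moved far less, from 0.04, 0.17, -0.10 and -0.29 to 0.39, 0.32, 0.41 and 0.08 in wild-type hearts, 1.27-fold (adjusted p = 0.0139). Its change in knockout hearts was 0.22 and was not called. Eif6, which keeps the large subunit from joining too early, rose from 2.85, 2.82, 2.61 and 2.79 to 3.56, 3.32, 3.34 and 3.41 in wild-type hearts, 1.56-fold (adjusted p = 0.000585), and 1.51-fold in knockout hearts. Both Eif6 probes were called higher in both genotypes.

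Of the 7 elongation genes, 4 were called higher and 0 lower in wild-type hearts, and 3 and 1 in knockout hearts, with median changes of 0.38 and 0.21. The shares higher were 57.1% and 42.9%, against 31.8% and 25.5% of all genes. Those lower were 0% and 14.3%, against 18.5% and 18.6%. Eef1a2, the muscle and nerve form of eEF1A, had levels of 3.62, 3.75, 3.57 and 3.41 in nulliparous and 5.01, 4.59, 4.64 and 4.70 in lactating wild-type hearts, and of 3.61, 3.82, 3.32 and 4.76 and 4.81, 4.89, 4.97 and 4.84 in the knockout groups. No lactating array overlapped a nulliparous array of its genotype. It rose 2.21-fold (adjusted p = 0.000889) and 2.00-fold (adjusted p = 0.00310), or 2.45-fold in knockout hearts without nulliparous replicate 4. Eef1a1, the general form, had levels of 6.24, 6.13, 6.06 and 6.01 and 5.92, 5.94, 5.82 and 5.97 in the wild-type groups, a change of -0.20 (adjusted p = 0.165), and of -0.19 in knockout hearts. The 95% interval for Eef1a1 in wild-type hearts was -0.44 to 0.05 and that for Eef1a2 was 0.67 to 1.62, and these did not overlap. The Eef1a1 values are those of the brighter of its 2 probes alone, and Eef1a2 has 1 probe. The difference between the genes was not tested.

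Eef2, the translocase, had levels of 7.22, 7.13, 7.04 and 6.97 in nulliparous and 7.12, 6.74, 6.77 and 6.72 in lactating wild-type hearts, the latter with 1 array among the nulliparous values. Its change was -0.25 (95% interval -0.48 to -0.03, adjusted p = 0.0603) in wild-type and -0.23 (adjusted p = 0.0947) in knockout hearts, and neither was called. Without lactating wild-type replicate 1 it was -0.35 with an adjusted p of 0.0116, and with the replicate number as a block the adjusted p-values were 0.0161 and 0.0301. Eef2 was thus near the threshold of a called fall, while median centring brought the wild-type change to -0.07.

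The exchange factor that reloads eEF1A has 3 subunits. Eef1g rose from 3.93, 3.92, 3.75 and 3.87 to 4.71, 4.64, 4.80 and 4.69 in wild-type hearts, 1.79-fold (adjusted p = 0.000317), and 1.61-fold in knockout hearts, by both of its probes. Eef1b2 rose 1.30-fold in wild-type hearts, from 5.46 to 5.77 to 5.94 to 6.13, and changed by 0.21 in knockout hearts, a call only without nulliparous replicate 4. Eef1d was not called in wild-type hearts (-0.13) and fell 1.36-fold in knockout hearts (adjusted p = 0.00741), from 7.35 to 7.69 to 6.75 to 7.32, a call that median centring ends (adjusted p = 0.0982).

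Eef1e1 carries an elongation factor's name but is known as a scaffold of the aminoacyl-tRNA synthetase complex and as a regulator of p53. Its levels were -0.69, -0.73, -1.24 and -0.40 in nulliparous and 0.98, 0.99, 1.22 and 0.89 in lactating wild-type hearts, and -0.71, -0.89, -1.06 and 0.59 and 1.17, 1.26, 1.09 and 1.05 in the knockout groups. Every lactating array lay above every nulliparous array. The rise was 3.44-fold in wild-type (SE 0.28 on the log2 scale, adjusted p = 0.000244) and 3.16-fold in knockout hearts (adjusted p = 0.000797), the largest of the 63 factors after Eif3i.

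Of the other 6 genes with these names, 5 rose in wild-type hearts (83.3%, against 31.8% of all genes). In knockout hearts 4 rose (66.7%, against 25.5%), and the median changes of the 6 genes were 0.33 and 0.29. Most of them encode enzymes that methylate elongation factors. Eef1akmt4, which methylates a lysine of eEF1A, had levels of 1.40, 1.64, 1.39 and 1.48 in nulliparous and 3.03, 2.85, 2.83 and 2.71 in lactating wild-type hearts. In knockout hearts the levels were 1.83, 1.57, 1.75 and 2.20 and 2.69, 2.92, 2.54 and 2.80, and here replicate 4 of the nulliparous group stayed below all lactating arrays. The rise of 2.60-fold in wild-type hearts had an adjusted p of 2.07e-05, the smallest of the 63 factors, and the rise in knockout hearts was 1.87-fold (adjusted p = 0.000471). Eef1akmt4 lies beside Ece2 and is known to share a read-through transcript with it, so a probe may also read that transcript.

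Eef1akmt2, another eEF1A lysine methyltransferase, rose 1.35-fold in wild-type and 1.32-fold in knockout hearts by its brightest probe, and its second probe gave 0.10 and 0.11 with no call. Eef1akmt1 rose 1.27-fold in wild-type hearts and changed by 0.04 in knockout hearts. Eef2kmt, which methylates eEF2, rose 1.24-fold (adjusted p = 0.0379) and 1.28-fold (adjusted p = 0.0239). Eef1aknmt, which methylates eEF1A at its first residue and at a lysine, was not called in either genotype.

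None of the factors was called for genotype in either state. In nulliparous hearts 0 of the 63 were called by limma, against 0.0996% of all genes (0.0711% higher and 0.0284% lower in knockout hearts), and 4 had an unadjusted p under 0.05 (6.35%, against 8.63% of all genes). In lactating hearts 0 were called, against 0.199% (0.064% higher and 0.135% lower), and 3 had an unadjusted p under 0.05 (4.76%, against 9.14%). The median half-width of the 95% interval was 0.24, and the interval lay within 1 log2 unit of 0 for 62 of the 63 in nulliparous and 63 of the 63 in lactating hearts, so that a 2-fold genotype difference lies outside nearly all of the intervals and smaller ones often lie inside.

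The smallest p in nulliparous hearts was that of Eif4e2, higher in knockout hearts (2.13, 2.23, 2.29 and 2.38) than in wild-type hearts (1.91, 2.05, 1.89 and 1.96) by 0.31 (SE 0.10, adjusted p = 0.428), with no overlap, as for 2 of the 63 factors (3.17%) and 3.24% of all genes. In lactating hearts it was that of Eif4ebp2, lower in knockout hearts by 0.27 (95% interval -0.48 to -0.06, adjusted p = 0.363), with the 4 knockout arrays below the 4 wild-type arrays, as for 2 of the 63 factors (3.17%) and 4.54% of all genes. In nulliparous hearts Eif4ebp2 differed by -0.23 (adjusted p = 0.546), and by -0.31 (adjusted p = 0.277) without replicate 4. Eif2a, Eif4e and Eif5a2 lie on chromosome 3, as Npr1 does, and their genotype differences ran from -0.19 to 0.11 over both states, with adjusted p-values of 0.649 to 0.962.

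The lactation change itself differed between the genotypes for 0 of the 63 factors, against 0.0924% of all genes (0.0213% with a higher and 0.0711% with a lower change in knockout hearts), with 3 at an unadjusted p under 0.05 (4.76%, against 6.37%), all of them with the smaller change or the deeper fall in knockout hearts. These were Eef1akmt4 (-0.48, SE 0.18, adjusted p = 0.680), Eif3c (-0.26, adjusted p = 0.716) and Eif4e2 (-0.36, adjusted p = 0.716), each by its brightest probe. The median difference over the 63 was -0.11, against -0.06 over all genes, and it was -0.03, against -0.05, without nulliparous knockout replicate 4. The absolute change was larger in wild-type than in knockout hearts for 47 of the 63, but for 29 of the 63 without that array.

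Some genes gave different answers by different probes. Of the 21 factors with 2 or more tested probes, 9 had probes of opposite sign in wild-type hearts and 7 in knockout hearts, and the median spread between a gene's probes was 0.36 and 0.55. For 8 factors whose brightest probe was not called in wild-type hearts, another probe was called in both genotypes. Eif4g3 fell by 1.00 and 0.80, Eif3c by 0.86 and 0.94, and Eif4a2 by 0.67 and 0.82 by their second probes, and Eif4b by 0.29 and 0.33. Eif3k rose by 0.77 and 0.54, Eif3h by 0.59 and 0.56, Eif3m by 0.53 and 0.40, and Eif1ad by 0.84 and 0.71. Eef1g, Eif2b3, Eif2s3x and Eif6 were called the same way by both of their probes. The single-probe leaders Eif3i, Eef1e1, Eif5a, Eef1akmt4, Eif3e and Eef1a2 have no second tested probe to set beside them.

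**Figure D4:**
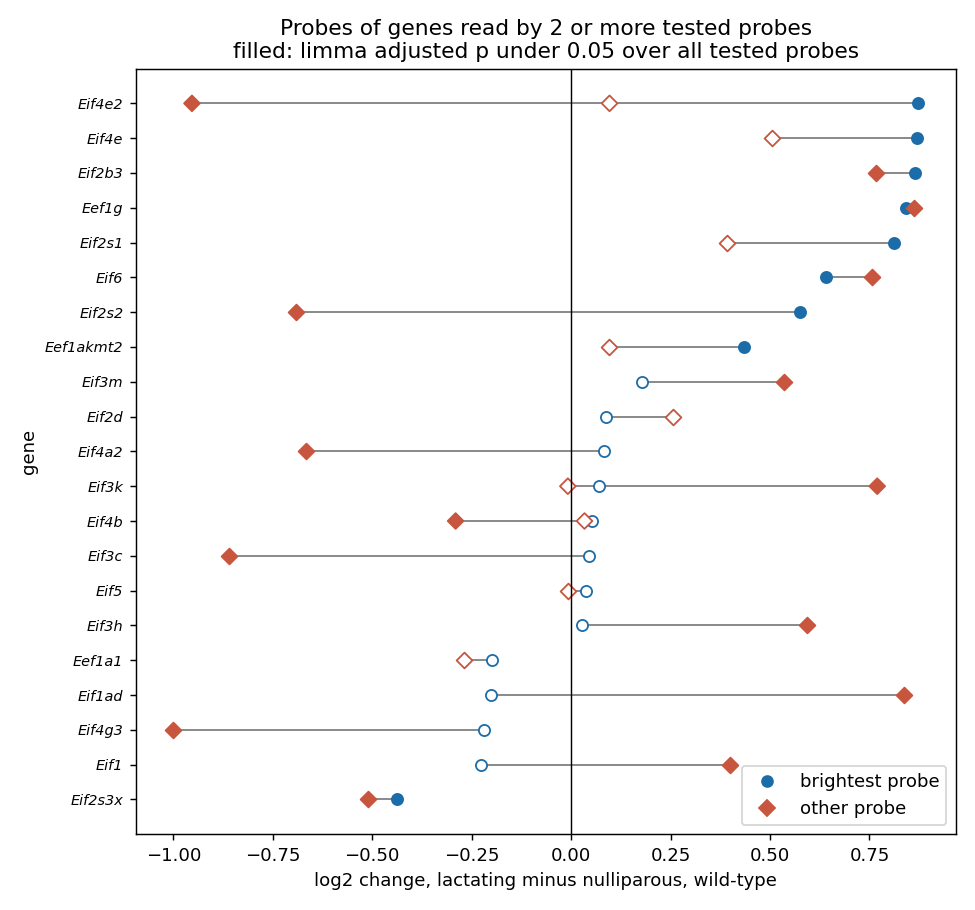
Change with lactation in wild-type hearts, as log2 lactating minus nulliparous, by each tested probe of the 21 factors with 2 or more such probes, with the brightest probe as a blue circle, other probes as red diamonds, and filled symbols for an adjusted p under 0.05 over all tested probes. For Eif4e2, Eif2s2, Eif4a2, Eif3c, Eif1ad and Eif1 the probes lie on both sides of 0, with 1.83 between the extremes for Eif4e2, while the pairs of Eef1g, Eif2b3, Eif6 and Eif2s3x lie close together.

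The rises were not spread evenly over probe signal, which is no measure of transcript amount across genes. Divided into groups of 21 at signals of 2.38 and 4.20, the factors gave 14 of 21 higher in the dimmest group in wild-type hearts, 15 of 21 in the middle group and 6 of 21 in the brightest, where all tested genes of the same ranges gave 29.4%, 37.7% and 35.4%. In knockout hearts the counts were 12, 14 and 2 of 21, against 25.9%, 27.8% and 20.4%. The 6 rises of the brightest group in wild-type hearts, 28.6% of its 21, were those of Eef1a2, Eef1b2, Eef1g, Eif2b2, Eif3l and Eif4h. The same group also holds Eef1a1, Eef2, Eef1d, Eif1, Eif3h, Eif3k, Eif3g and Eif4a1, whose wild-type changes lay between -0.25 and 0.14. Across the 63 factors signal and wild-type change correlated at r = -0.235 (Spearman -0.339), and at -0.0005 (0.022) over all 14063 genes, as a description.

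**Figure D5:**
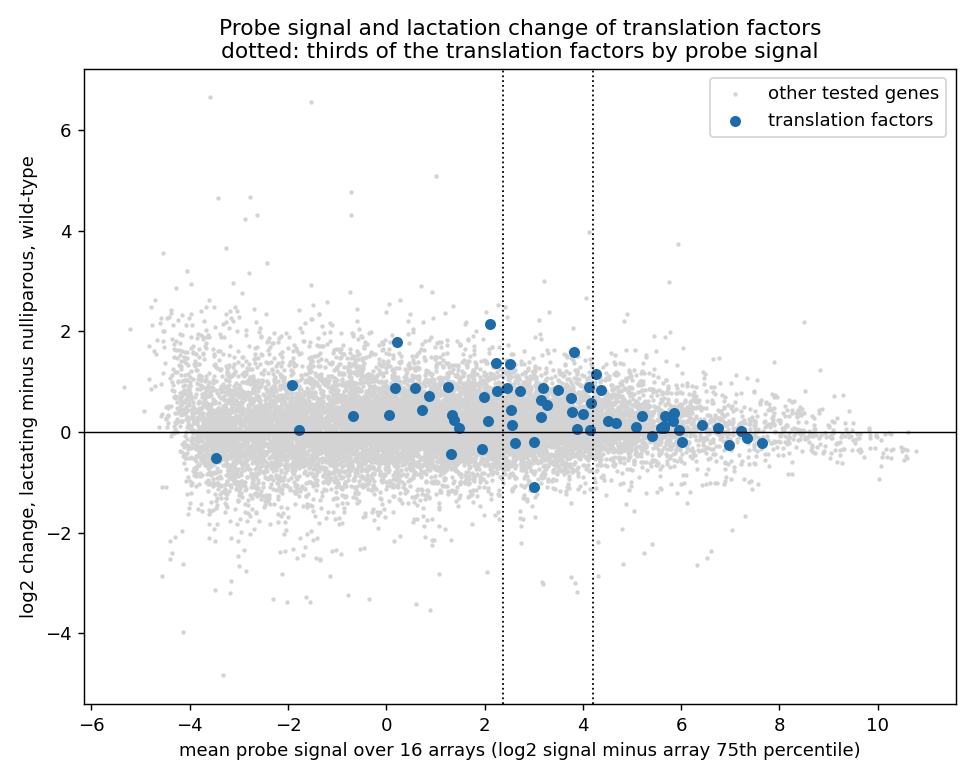
Change with lactation in wild-type hearts (log2) against the mean probe signal over 16 arrays (log2 minus the array's 75th percentile) for 63 translation factors (blue) and the other tested genes (grey), with dotted lines at 2.38 and 4.20. The blue points right of 4.20 lie between -0.25 and 0.38, with the exception of Eef1a2 (1.15) and Eef1g (0.84).

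Genes that act on these factors were called in both directions. For each of the lists that follow, the shares over all genes to set beside it are 31.8% higher and 18.5% lower in wild-type and 25.5% and 18.6% in knockout hearts. Of 34 tested regulators, 8 were called higher and 8 lower in wild-type hearts, and 7 and 7 in knockout hearts, or 23.5% each way and 20.6% each way, with median changes of 0.03 and -0.09, against 0.10 and 0.06 over all genes. Pdcd4, which blocks the helicase eIF4A, fell by 1.06 and 1.32 on the log2 scale, Rheb, the GTPase that switches mTOR on, rose by 0.89 and 0.68, and Mtor rose by 0.56 and 0.50 (limma adjusted p = 0.00572 and 0.0136). Without nulliparous knockout replicate 4 the knockout counts were 8 higher and 10 lower. Of 13 tested genes of the integrated stress response, the programme that follows eIF2 phosphorylation, 5 were called higher and 0 lower in wild-type hearts, and 3 and 0 in knockout hearts, with medians of 0.18 and 0.10. The shares higher, 38.5% and 23.1%, lay near those of all genes. Gdf15, a secreted stress factor, rose by 1.62 and 1.57, whereas Atf4, the transcription factor at its centre, changed by 0.18 and 0.03 and Ddit3 by -0.32 and -0.17, none of them called.

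Of 14 genes of termination, ribosome recycling and poly(A) binding, 8 were called higher and 1 lower in wild-type hearts and 8 and 2 in knockout hearts, with medians of 0.36 and 0.26. The shares higher were 57.1% in both genotypes. Mcts1, which helps to recycle the small subunit, rose by 1.17 and 0.62, Abce1, which splits the ribosome, by 0.88 and 0.73, and Gspt1, the release factor eRF3, by 0.68 and 0.39. Of 12 enzymes that modify eEF2 and eIF5A or make the spermidine used for hypusine, 5 and 0 were called in wild-type hearts and 3 and 1 in knockout hearts, with medians of 0.21 and 0.11. The shares higher were 41.7% and 25%. Srm, spermidine synthase, rose by 0.59 and 0.58, while Dhps, which transfers the spermidine part to eIF5A, changed by -0.14 and -0.07 and was not called by its brightest probe (with the mean of its probes 0.42 in wild-type hearts, adjusted p = 0.0401). Dohh, the next enzyme, fell by 0.23 in knockout hearts (adjusted p = 0.0490).

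Of 10 tested mitochondrial translation factors, 8 were called higher and 1 lower in wild-type hearts, and 6 and 1 in knockout hearts, with medians of 0.41 and 0.31. The shares higher were 80% and 60%. Tsfm, the mitochondrial exchange factor, rose by 1.17 and 1.08, Gfm1, the mitochondrial translocase, by 1.01 and 0.57, and Mtif2, the mitochondrial initiation factor, fell by 0.58 and 0.56. Of 21 tested genes of cytosolic aminoacyl-tRNA synthetases and their scaffolds, 9 were called higher and 3 lower in wild-type hearts, and 6 and 3 in knockout hearts (7 and 6 without nulliparous knockout replicate 4), with medians of 0.17 and 0.04. The shares higher were 42.9% and 28.6%, the latter near that of all genes. Farsb, a subunit of the phenylalanine enzyme, rose by 0.94 and 0.76 and Dars, the aspartate enzyme, fell by 0.42 and 0.64. None of the genes in these 6 lists was called for genotype in either state or for the difference in the lactation change.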

How the data were processed

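Total RNA of 16 ventricles was hybridised to one-colour arrays on 2 slides, with 2 arrays of every group on each, and each group kept its array position on both slides, so position and group cannot be told apart. Per the file headers, the authors' scanner files hold a processed intensity per spot, background-subtracted and detrended by Agilent Feature Extraction 10.7.3.1 (also in the submitters' processing notes), with no scaling between arrays. A log2 table per probe was deposited too. Each of its columns, set against the scanner values less the nulliparous wild-type mean, correlated at 0.942 to 0.996 (median difference -0.0261 to 0.0187), so scale, centring and direction are known and positive means above that group. Its columns have medians of -0.382 to 0.0318. That table was used as an alternative only.

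Control and outlier spots were left out, and 55681 probes were scaled by subtracting the 75th percentile of log2 signal. Probes were named through accessions in a RefSeq gene table (28026 named, 27655 not). No probe was saturated. A gene was tested if the scanner called its brightest probe well above background on every array of some group (14063 genes). limma 3.58.1 (R 4.3.3) fitted 4 group means with 12 residual degrees of freedom, and p-values were adjusted by Benjamini-Hochberg over all tested genes. The steps were tested on simulated data. Alternatives were background correction, normalization, filter, probe summary, weights, blocks, slides, the deposited table and each array left out in turn. Members were named by role; array values were given for called members with the largest change in each role, a fixed set of central factors, and the smallest genotype p-values. The members and lists were chosen with earlier results of these data known. The number of arrays limits the precision.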

Additional observations from a re-analysis of the deposited data

Results flagged for a closer look

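In 252 groups of 4 arrays over the 63 tested factors, 8 held an array whose gap to the others was large against the range of its group by Dixon's measure; chance gives about 1 in 20. Of these, 3 were the highest values of lactating wild-type replicate 1 among factors that were not called there. They were Eef2 at 7.12, with the others at 6.72 to 6.77, Eif3b at 2.72, with the others at 2.49 to 2.51, and Eef1aknmt at -1.58, with the others at -1.91 to -1.87. The same array was also highest for Eif2s3x, at 1.28, with the others at 1.09. On nulliparous knockout replicate 4, Eef1akmt2 was highest, at 0.95, with the others at 0.40 to 0.47, and Eif4b was lowest, at 3.82, with the others at 3.92 to 3.94. Eif4ebp2 was lowest among lactating knockout hearts on replicate 4, at 3.17, with the others at 3.45 to 3.47. Eif3h was lowest among nulliparous wild-type hearts on replicate 3, at 7.06, with the others at 7.21 to 7.24.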

How the results depend on the processing

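The counts of called factors kept within 1.5 times of 39 in wild-type and 36 in knockout hearts, with these exceptions: 23 in knockout hearts (20 higher, 3 lower) when only the knockout groups were fitted, and 0 in either genotype on slide 2 alone, where 86 and 0 of all genes were called. Slide 1 alone called 27 and 31. Without nulliparous knockout replicate 4, a setting added after seeing the data, slide 2 called 26 and 24. All called changes had the same sign on both slides. Leaving out each array in turn gave 34 to 42 in wild-type and 28 to 41 in knockout hearts, lowest without lactating wild-type replicate 3 and nulliparous knockout replicate 1, and 0 for genotype and for the difference between genotypes.

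Median centring moved the median of all genes from 0.10 to 0.28 in wild-type and from 0.06 to 0.24 in knockout hearts. It split the factors' calls 44 higher to 1 lower and 39 to 1, and Eif3j2 was the one that fell in both. Of all genes called in that setting, 80.3% and 79.2% were rises, against 63.2% and 57.9% in the main setting. Quantile normalization gave 31 to 9 and 29 to 7 for the factors, and 58.7% and 58.6% rises among all called genes. With the mean of a gene's probes, called changes turned, or changes turned into a call, for Eif1 (0.087 in wild-type, 0.055 in knockout hearts), Eif1ad (0.32 and 0.16), Eif2s2 (-0.058 and -0.39), Eif3c (-0.41 in wild-type), Eif3h (0.28 in knockout), Eif4a2 (-0.29 in wild-type), Eif4e2 (-0.19 in knockout hearts) and, among the list genes named, Dhps (0.42 in wild-type). Of the 75 called changes of the 63 factors, 38 held under all 29 alternatives other than the 2 of slide 2. The replicate numbers did not pair the mice (r of -0.136 to 0.178 over 24 pairs, 8 above 0.1; 7 of 16 arrays correlated best with their own number), and with the replicate block 40 and 35 factors were called. The cause of these shifts was not tested.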
